A study of Mus musculus with 2 samples.

Results

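The genes of glutathione synthesis, recycling, breakdown and use were compared between control AML12 cells and AML12 cells made senescent with hydrogen peroxide. The set is a named list of 40 genes, matched by Ensembl gene ID to mouse symbols, of 35275 genes in the table. It holds 3 synthesis genes, glutathione reductase, 7 genes of breakdown and the γ-glutamyl cycle, 6 glutathione peroxidases and 23 glutathione S-transferases. AML12 is a hepatocyte line established from a mouse carrying a human TGF-α transgene. The labels describe both samples as male CD-1 liver cells of 3 months of age. The control library, titled Young, came from untreated cells, and the senescent library, titled Old, came from cells exposed to hydrogen peroxide to bring on premature senescence. The titles therefore name treatment and not the age of an animal. Per the study's methods, the exposures were short, repeated daily and followed by recovery in complete medium with dexamethasone, and each library was made from RNA of 3 pooled samples.

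Glutathione is a tripeptide of glutamate, cysteine and glycine and the main low-molecular-weight thiol of hepatocytes. Glutamate-cysteine ligase, formed by a catalytic subunit (Gclc) and a modifier subunit (Gclm), makes the first bond, and glutathione synthetase (Gss) adds glycine. Peroxidases oxidise glutathione to remove peroxides, glutathione reductase (Gsr) returns the oxidised form, and the transferases couple glutathione to electrophilic drugs, toxins and lipid aldehydes, a classical function of the liver. γ-Glutamyl transferases at the cell surface start its breakdown outside the cell.

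The libraries held 28021941 reads (control) and 25738075 reads (senescent), with 17403 and 17592 genes detected. A log2 ratio here is the senescent over the control count after scaling by trimmed mean of M values (TMM), with a prior count of 1, and the range in brackets is its 95% Clopper-Pearson interval, which covers counting error only. Each condition had 1 library, so differences could not be set against replicates and no test was run. A gene counting 10 or more reads in all was called where its log2 ratio reached 1.5 in either direction and its interval left out 0. In bulk RNA, fewer cells of a type and less RNA per cell cannot be told apart. Hepatocyte genes were present in both libraries, with 8187 and 7705 reads of Hnf4a and 119403 and 144783 of Krt8. The hepatocyte markers did not move one way. Of the 13 with enough reads, Alb (32076 and 2917 reads) and Apoa1 (2026 and 197) were called lower and Cps1 (19 and 55) higher, with 5 intervals below 0, 6 above and a median log2 ratio of 0.14. Of the biliary and progenitor markers, Krt19 had 22885 and 19177 reads and Spp1 25430 and 10580, Krt7 was at -1.43, Cftr was called higher with 44 and 176 reads, and Epcam had 0 and 1. The 8 fibroblast and stellate markers summed to 27 and 9 reads and the 5 endothelial markers to 5 and 13. The 7 macrophage and leukocyte markers summed to 5628 and 2035 reads, of which Cd14 held 5551 and 1879, while Ptprc (27 and 76) and Csf1r (15 and 40) were called higher and Adgre1 and Clec4f had none. The part of these shifts in the glutathione results was not tested.

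The senescent library had more reads of Gclc and Gsr, short of the threshold, fewer of Gclm, and fewer of most mu and theta transferases, of Gstz1 and Mgst1 and of the γ-glutamyl transferases, while the abundant peroxidases lay close to the control. Of the 40 genes, 34 had at least 10 reads. Of these 34, 11 were called lower (32.4%, against 5.60% of all 14383 genes with at least 10 reads) and 1 was called higher (2.94%, against 2.71%). The study listed glutathione genes among those lower in these same libraries, so the count of lower genes is not independent evidence of its direction. The interval lay wholly below 0 for 22 genes (64.7%, against 34.6% of all genes) and wholly above 0 for 6 (17.6%, against 34.0%). Shares of such intervals, here and below, also depend on depth, because counting intervals narrow with more reads. At least 100 reads were counted for 31 of the 34 genes and for 11291 of the 14383. The median log2 ratio was -0.50 over the 34 genes, with quartiles of -1.54 and -0.01, and -0.02 over all genes, with quartiles of -0.48 and 0.35. Ggt5, Gpx2, Gpx7 and Gpx8 had no read in either library, where a count of 0 allows up to 3 reads, or 0.103 counts per 1000000 scaled reads (CPM) in control and 0.121 in senescent cells. Gstm3 had 2 and 2 reads and Gstp2 had 1 and 3.

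**Figure D1:**
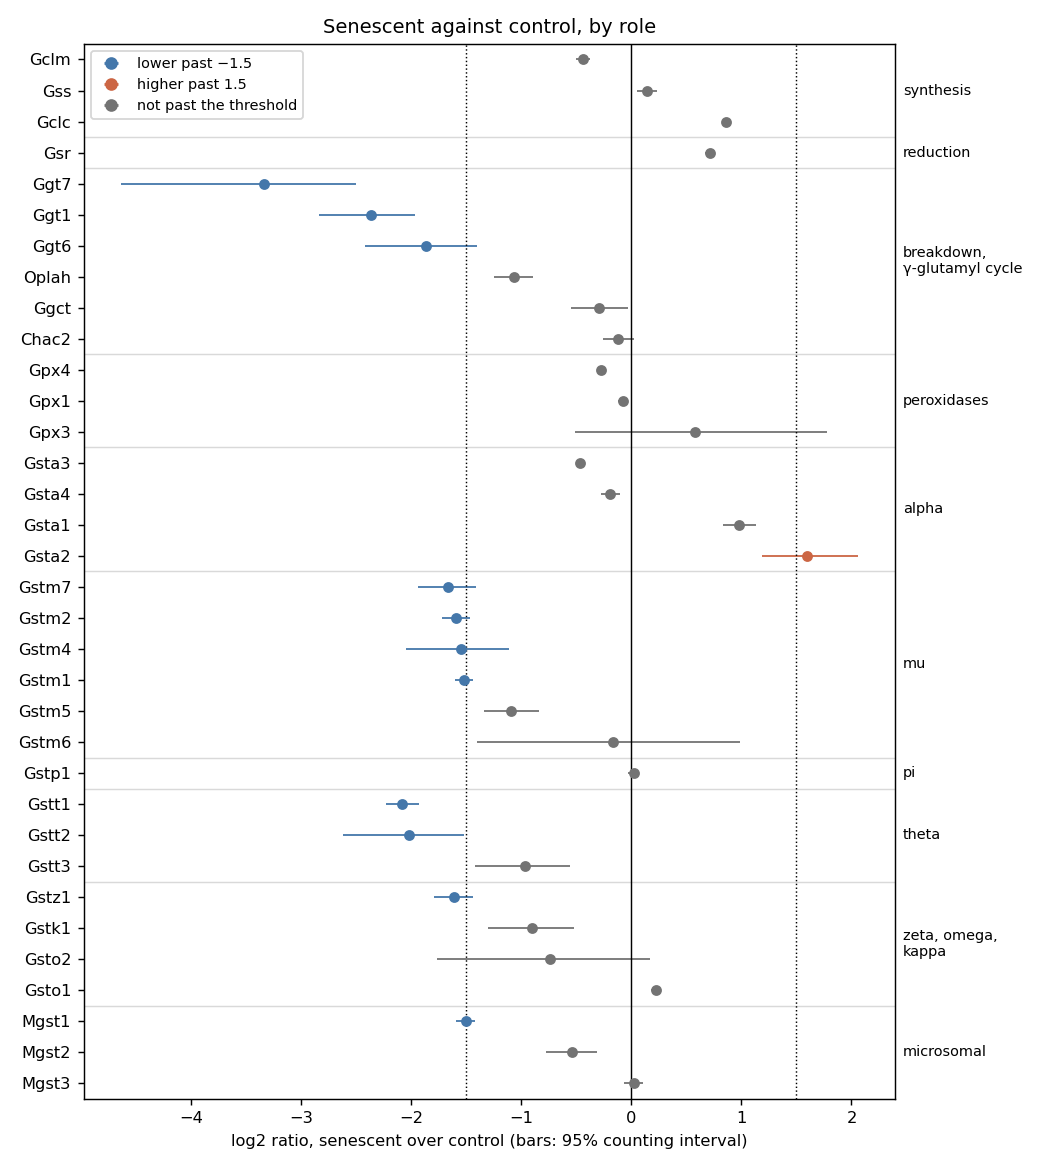
Log2 ratio of senescent over control reads for the 34 genes with at least 10 reads, grouped by role, with bars for the 95% counting interval and dotted lines at -1.5 and 1.5. The 11 genes called lower lie among the γ-glutamyl transferases, the mu and theta classes, Gstz1 and Mgst1, and Gsta2 alone was called higher.

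In the synthesis group, the catalytic and modifier subunits of glutamate-cysteine ligase differed in opposite directions. Gclc had 27309 control and 42273 senescent reads, and its log2 ratio was 0.86 (0.84 to 0.88). Gclm had 5485 and 3450 reads, giving a log2 ratio of -0.44 (-0.50 to -0.38). Gss, which completes the tripeptide, had 2227 and 2094 reads (0.14, interval 0.05 to 0.23). None of the 3 passed the threshold. Of the 50-base words of their transcripts, 0 of those of Gclc, 4.38% of those of Gclm and 10.3% of those of Gss occurred in another gene. For Gclm these genes include Ppia, which had 41177 and 30028 reads. Exons of Gss overlap those of Acss2 (317 and 94 reads) on the opposite strand over 6.7% of their length. Levels per kb used the merged exons of all annotated transcripts. Per kb of exon, Gclc stood at 249 CPM in control and 453 in senescent cells, and Gclm at 30.0 and 22.1. The ratio of Gclc to Gclm per kb was thus 8.32 in control and 20.5 in senescent cells, 2.46-fold higher, a log2 difference of 1.30 (1.23 to 1.36). This ratio of ratios does not depend on how the libraries were scaled. Gclc held 78.0% of the reads of the synthesis group in control and 88.4% in senescent cells, and 19.9% and 35.2% of the reads of all 40 genes.

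Gsr, which uses NADPH to return oxidised glutathione to the reduced form, had 5928 control and 8294 senescent reads. Its log2 ratio was 0.71 (0.67 to 0.76), a 1.64-fold higher level, below the threshold. Summed over all 40 genes, the reads were 136945 and 120257, and the log2 ratio of the sums was 0.04 (0.03 to 0.05). Total-count scaling moved the median of all genes by -0.11, further than this sum lies from 0, so its sign depends on the scaling. Without Gclc, left out after its values were seen, the sums were 109636 and 77984 and the log2 ratio was -0.26 (-0.28 to -0.25). The near-equal total therefore held a higher Gclc against lower reads in the other 39 genes together.

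**Figure D2:**
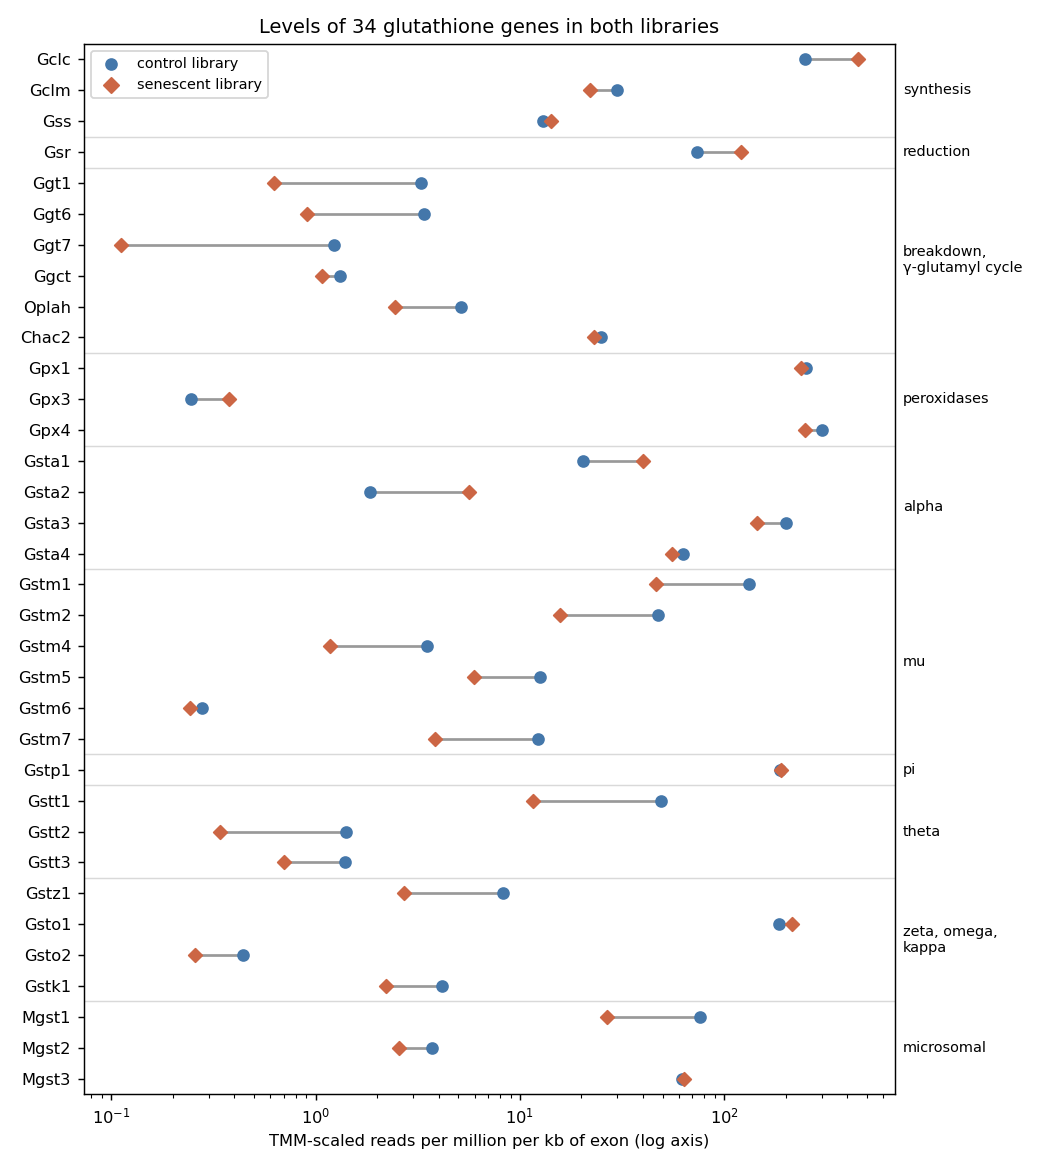
Level of each of the 34 genes in the control (circles) and the senescent library (diamonds), as counts per 1000000 scaled reads (CPM) per kb of exon on a log axis. By this measure, Gpx4 had the highest level in the control (300.3) and Gclc in the senescent library (453). Gstm1, Mgst1 and Gstt1 show wide gaps to the left.

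The γ-glutamyl transferases were the group furthest below the control. Ggt1, which cleaves extracellular glutathione and its conjugates, had 326 control and 53 senescent reads, and its log2 ratio was -2.37 (-2.84 to -1.97). Ggt6 had 179 and 41 reads (-1.87, interval -2.42 to -1.40). Ggt7 had 117 and 9 reads (-3.34, interval -4.64 to -2.50). All 3 were called lower, at 5.17-fold, 3.66-fold and 10.2-fold, beside 5.60% of all genes. Their summed reads were 622 and 103 (-2.35, interval -2.68 to -2.06). Exons of Ggt7 overlap those of Acss2 on the opposite strand over 6.0% of their length, and Acss2 had 317 and 94 reads. Whether the counting used strand is not given in the sources used here.

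The enzymes that act inside the cell on γ-glutamyl compounds differed less. Oplah, the oxoprolinase that returns glutamate to the cycle, had 873 and 354 reads (-1.07, interval -1.25 to -0.89), and its exons overlap those of Exosc4 and Smpd5. Ggct, a γ-glutamylcyclotransferase, had 297 and 207 reads (-0.29, interval -0.55 to -0.03). Chac2, which degrades cytosolic glutathione, had 956 and 749 reads, and its interval of -0.26 to 0.02 included 0. Against Ggct, Oplah was lower in the senescent library by a scale-free log2 difference of -0.78 (-1.09 to -0.47). Chac2 made up 34.8% of the reads of the breakdown group in control and 53.0% in senescent cells.

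The glutathione peroxidases were represented almost wholly by Gpx1 and Gpx4, and both were close to the control. Gpx1, the cytosolic selenoenzyme that reduces hydrogen peroxide, had 10535 and 8493 reads, giving a log2 ratio of -0.08 (-0.12 to -0.04). Gpx4, which reduces phospholipid hydroperoxides in membranes, had 15057 and 10601 reads (-0.28, interval -0.31 to -0.24). Per kb, Gpx4 stood at 300.3 and 248 CPM and Gpx1 at 251 and 238, so that they took ranks 1 and 2 of the 34 genes in the control and 2 and 3 in the senescent library. Relative to Gpx4, Gpx1 was higher in the senescent library by 0.20 on the log2 scale (0.14 to 0.25). Gpx3, the secreted peroxidase, had 13 and 17 reads, and its interval of -0.51 to 1.78 spanned 0. The summed peroxidase reads were 25605 and 19111 (-0.19, interval -0.22 to -0.17).

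Over the 23 transferases, which summed to 67643 control and 43622 senescent reads, the log2 ratio of these sums was -0.40 (-0.42 to -0.39), and their classes differed widely. The summed log2 ratio was -1.98 (-2.12 to -1.84) for theta, -1.52 (-1.58 to -1.46) for mu, -0.82 (-0.88 to -0.76) for the microsomal enzymes and -0.38 (-0.41 to -0.36) for alpha. The pi sum, of Gstp1 and Gstp2 only, was 0.02 (-0.03 to 0.06) and turned to -0.09 with total-count and -0.02 with upper-quartile scaling. The sum of zeta, omega and kappa was 0.10 (0.06 to 0.13) and turned to -0.01 with total-count scaling, which moved the median of all genes by -0.11. As shares of the transferase reads, mu went from 13.6% to 6.30% and theta from 3.69% to 1.24%. Pi went from 12.5% to 16.7%, and zeta, omega and kappa together from 18.2% to 25.8%. Alpha held 41.9% and 42.4%.

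**Figure D3:**
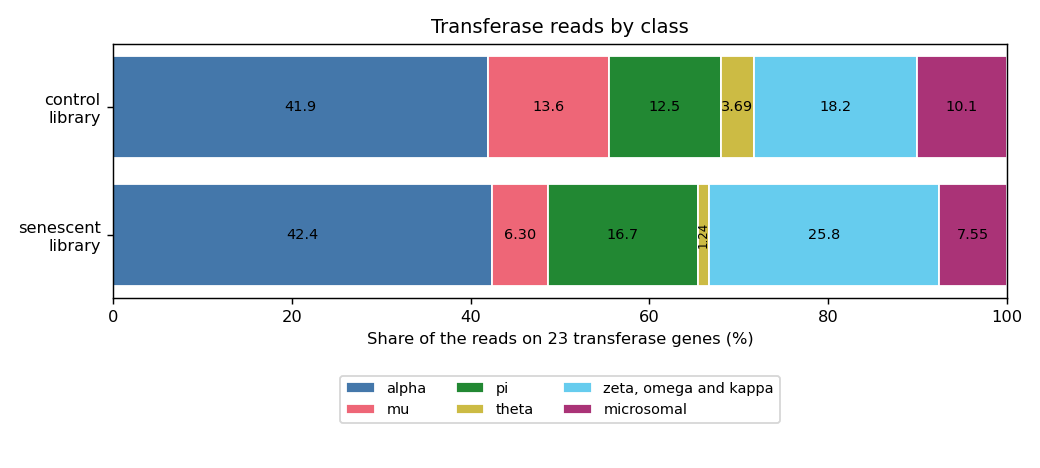
Share of the reads on the 23 transferase genes that fell in each class, in the control and the senescent library, in percent. The mu share was 13.6% and 6.30%, and that of zeta, omega and kappa 18.2% and 25.8%, while the alpha share was 41.9% and 42.4%.

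Within the alpha class, the dominant gene was lower and the minor pair was higher. Gsta3, known in mouse liver for conjugating aflatoxin epoxide, had 25369 and 15657 reads, giving a log2 ratio of -0.47 (-0.50 to -0.44), and held 89.6% of alpha reads in control and 84.6% in senescent cells. Gsta4, which acts on aldehydes from lipid peroxidation, had 2326 and 1742 reads (-0.19, interval -0.28 to -0.10). Gsta1 had 567 and 952 reads (0.98, interval 0.83 to 1.13), and Gsta2 had 63 and 165 (1.60, interval 1.19 to 2.06). Gsta2 was thereby the single gene of the set called higher, at 3.04-fold, and with total-count scaling its log2 ratio of 1.496 missed the threshold. Relative to Gsta3, Gsta1 was higher in the senescent library by a scale-free log2 difference of 1.44 (1.29 to 1.60).

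Reads of Gsta1 and Gsta2 are hard to tell apart. Their longest annotated coding sequences were 97.9% identical, and 53.9% of the 50-base words of Gsta1 transcripts and 49.8% of those of Gsta2 also occurred in another gene. The first 196 coding bases of both were the same, so that a read from this stretch could come from either gene. In GRCm38 they fall in exons 2, 3 and 4 on chromosome 9, for Gsta1 at chr9:78232240-78232326, chr9:78235084-78235135 and chr9:78235930-78235986 on the plus strand, and for Gsta2 at chr9:78341830-78341916, chr9:78338645-78338696 and chr9:78337635-78337691 on the minus strand. The shared stretch, shown because the value of Gsta2 rests on how such reads were assigned, reads:
Gsta1 and Gsta2: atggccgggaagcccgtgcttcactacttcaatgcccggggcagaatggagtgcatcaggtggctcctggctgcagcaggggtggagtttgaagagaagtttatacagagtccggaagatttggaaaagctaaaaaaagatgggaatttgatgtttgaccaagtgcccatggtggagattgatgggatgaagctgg
The sum of both genes does not depend on that assignment between them, and whether reads matching both were counted at all is not given in the sources used here. It was 630 control and 1117 senescent reads, and its log2 ratio was 1.05 (0.91 to 1.20), below the threshold. Gm10639, which shares words with both, had 33 and 47 reads.

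The mu transferases, which conjugate a broad range of electrophiles, had intervals below 0 in 5 of the 6 genes with enough reads. Over all genes the share was 34.6%, and 5.60% were called lower. Gstm1 had 5686 control and 1691 senescent reads, Gstm2 had 2310 and 654, Gstm7 had 569 and 152, and Gstm4 had 174 and 50. Their log2 ratios were -1.52 (-1.60 to -1.44), -1.59 (-1.72 to -1.47), -1.67 (-1.94 to -1.41) and -1.55 (-2.05 to -1.11), and all 4 were called lower. Gstm5 had 469 and 188 reads (-1.09, interval -1.34 to -0.84), short of the threshold. Gstm6 had 16 and 12, with an interval of -1.40 to 0.99. Several of the called values lie close to the threshold, and that of Gstm4 was -1.49 with a prior count of 5.

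The shares of the leading mu genes were close in both libraries. Gstm1 held 61.6% of mu reads in control and 61.5% in senescent cells, and Gstm7 held 6.17% and 5.53%. The ratio to Gstm1 differed between libraries by a log2 difference of -0.07 (-0.22 to 0.08) for Gstm2, -0.05 (-0.51 to 0.41) for Gstm4 and -0.15 (-0.42 to 0.11) for Gstm7, each with an interval that included 0. Relative to Gstm1, Gstm5 was higher in the senescent library by 0.43 (0.17 to 0.69) and Gstm6, on its 16 and 12 reads, by 1.33 (0.25 to 2.42). Gstm5 overlaps the antisense gene 4933431E20Rik over 13.9% of its exon length, and that gene had 486 and 238 reads.

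Unlike Gsta1 and Gsta2, the mu genes can mostly be told apart by sequence. Of the 50-base words of their transcripts, 8.88% of those of Gstm1, 5.65% of those of Gstm2, 0.532% of those of Gstm7 and 0 of those of Gstm4 occurred in another gene, and for Gstm1 most of these lay in Gstm3, which had 2 reads in each library. Coding bases 193 to 312, counted from the start codon, are shown for the 4 called genes because they hold the longest stretch that Gstm1 and Gstm2 share without a difference (60 bases) and the start of where they part. They lie in exons 4 and 5 on the minus strand of chromosome 3 and span an intron, at chr3:108016376-108016585 for Gstm1, chr3:107985097-107985313 for Gstm2, chr3:108043372-108043586 for Gstm4 and chr3:107930322-107930539 for Gstm7. Capitals mark bases that differ from Gstm1.
Gstm1: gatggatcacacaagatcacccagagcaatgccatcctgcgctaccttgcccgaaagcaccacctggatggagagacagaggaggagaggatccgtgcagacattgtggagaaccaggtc
Gstm2: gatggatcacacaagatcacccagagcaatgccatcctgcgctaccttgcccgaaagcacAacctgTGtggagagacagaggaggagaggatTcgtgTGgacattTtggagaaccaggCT
Gstm4: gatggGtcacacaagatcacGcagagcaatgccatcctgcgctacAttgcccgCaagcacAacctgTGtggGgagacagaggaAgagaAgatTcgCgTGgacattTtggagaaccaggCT
Gstm7: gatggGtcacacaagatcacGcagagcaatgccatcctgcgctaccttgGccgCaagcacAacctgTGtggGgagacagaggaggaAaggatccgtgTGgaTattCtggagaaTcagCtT
Over these 120 bases, Gstm2 differed from Gstm1 at 9 positions, Gstm7 at 16 and Gstm4 at 17. Gstm4 and Gstm7, with few shared words, had log2 ratios of -1.55 and -1.67 beside the -1.52 of Gstm1.

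The 7 mu genes lie side by side over 149.1 kb of chromosome 3 (chr3:107895821-108044894), and the genes around them were mostly near the control. Within 250 kb of the cluster, 11 other genes had at least 100 reads, with a median log2 ratio of -0.05 and a range of -1.87 to 0.70. Csf1, which encodes the macrophage growth factor, was the 1 neighbour called lower, with 3186 and 745 reads. The 3 theta genes occupy 63.3 kb of chromosome 10, where 8 neighbours had a median of -0.23, and Lrrc75b was called lower, with 124 and 4 reads. In the pi region of chromosome 19, 28 neighbours had a median of -0.18 and 1, Tbc1d10c, was called lower. Around Gsta1, Gsta2 and Gsta4 on chromosome 9, none of 7 neighbours was called in either direction.

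**Figure D4:**
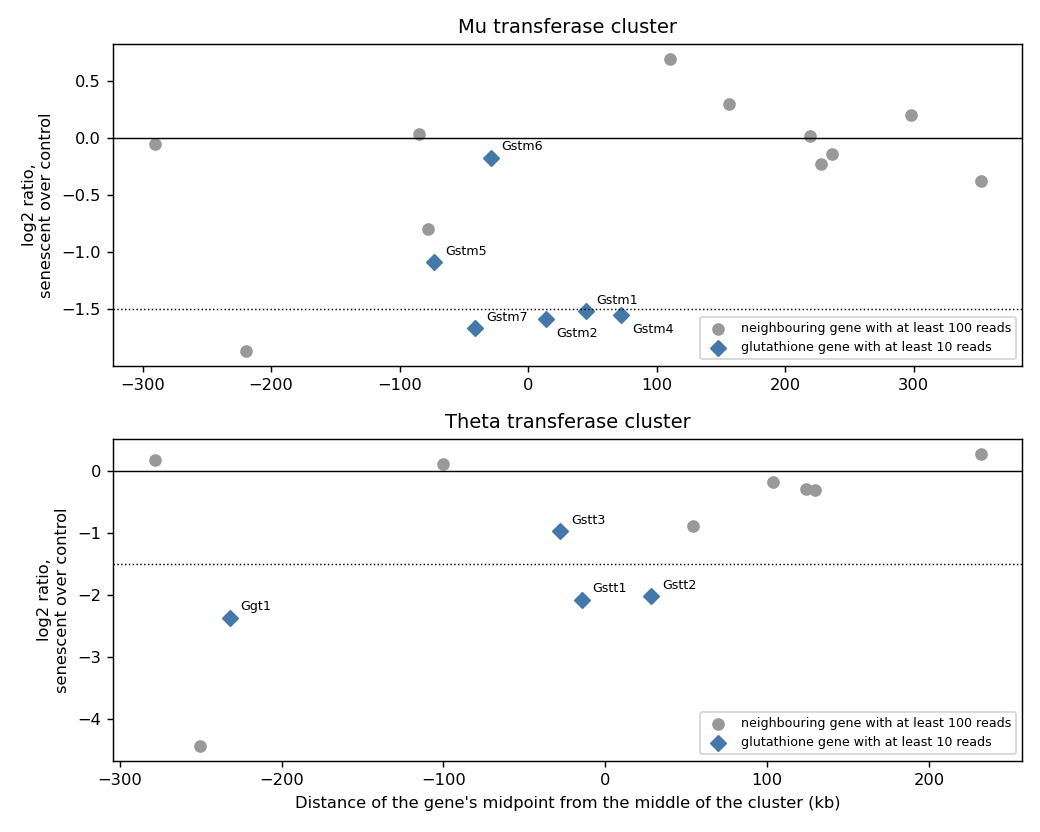
Log2 ratio of senescent over control reads against the distance of each gene from the middle of the mu (top) and theta (bottom) cluster, in kb, with glutathione genes as diamonds and neighbours with at least 100 reads as grey circles. Gstm1, Gstm2, Gstm4 and Gstm7 lie between -1.67 and -1.52, while the mu neighbours have a median of -0.05, and the dotted line is at -1.5.

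The theta class showed the lowest transferase values. Gstt1, which acts on small halogenated molecules, had 2171 and 438 reads, giving a log2 ratio of -2.08 (-2.23 to -1.93), or 4.22-fold lower. Gstt2 had 170 and 35 (-2.02, interval -2.62 to -1.52), and both were called lower. Gstt3, beside them, had 155 and 67 reads (-0.97, interval -1.42 to -0.56) and was not called. Relative to Gstt1, Gstt3 was higher in the senescent library by 1.10 on the log2 scale (0.66 to 1.54), while Gstt2 differed by 0.03 (-0.52 to 0.57). Ggt1 lies on the same chromosome, within 250 kb of the theta cluster.

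Gstp1, the abundant pi transferase, had 8425 and 7267 reads, giving a log2 ratio of 0.02 (-0.03 to 0.06) that turned to -0.09 with total-count and -0.02 with upper-quartile scaling. Per kb it held rank 5 of the 34 genes in both libraries, at 187 and 189 CPM. Gstm1, at 133 and 46.3, was lower relative to Gstp1 by a scale-free log2 difference of -1.54 (-1.63 to -1.45). Gstp1 and Gstp2 were 98.1% identical in coding sequence and shared 303 coding bases without a difference, so the counts of 1 and 3 for Gstp2 depend on how shared reads were treated. The pi sum was not affected by their assignment between both genes.

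Omega, zeta and kappa enzymes did not move as one. Gsto1, a thioltransferase that also reduces dehydroascorbate, had 10906 and 10818 reads (0.22, interval 0.18 to 0.26). Gstz1, the maleylacetoacetate isomerase of tyrosine breakdown, had 1224 and 341 reads (-1.61, interval -1.79 to -1.44) and was called lower. Gstk1, found in mitochondria and peroxisomes, had 178 and 81 (-0.90, interval -1.30 to -0.52), and Gsto2 had 30 and 15, with an interval of -1.77 to 0.17. Relative to Gsto1, Gstz1 was lower by a log2 difference of -1.83 (-2.01 to -1.65). Exons of Gstz1 overlap those of Pomt2 on the opposite strand over 9.1% of their length, and Pomt2 had 648 and 403 reads.

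Among the microsomal transferases, which are membrane proteins unrelated in sequence to the soluble ones, the leading gene changed. Mgst1 had 4437 and 1334 reads, giving a log2 ratio of -1.5 (-1.59 to -1.42), at the threshold itself. Mgst3 had 1994 and 1723, and its log2 ratio of 0.02 (-0.07 to 0.11) turned to -0.09 with total-count and -0.02 with upper-quartile scaling. Mgst2, which can make leukotriene conjugates, had 401 and 235 (-0.54, interval -0.78 to -0.31). Mgst1 held 64.9% of microsomal reads in control and 40.5% in senescent cells, and Mgst3 held 29.2% and 52.3%. Per kb, Mgst1 went from 75.8 to 26.7 CPM, above Mgst3 in the control (62.5) and below it in the senescent library (63.3).

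The order of the levels per kb shifted accordingly. In the control it was Gpx4, Gpx1, Gclc, Gsta3, Gstp1 and Gsto1, and in the senescent library Gclc, Gpx4, Gpx1, Gsto1, Gstp1 and Gsta3. Ranks between genes depend on the merged exon length, which was 4.344 kb for Gsta3, 0.956 for Gsta1 and 1.266 for Gsta4. Before division by length, Gclc stood at 939 and 1704 CPM, Gsta3 at 872 and 631 and Gpx4 at 518 and 427. Per kb, Gclc stood nearly level with Gpx1 in the control, at 249 against 251, and Gstp1 with Gsto1, at 187 against 185. Gstm1 went from rank 7 to 10, Mgst1 from 8 to 12 and Gstt1 from 12 to 17. Gsta1 went from rank 16 to 11 and Gsta2 from 27 to 19.

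Promoter windows were searched for the core of the antioxidant response element, TGACNNNGC, which the transcription factor NRF2 binds with small MAF proteins and which is known from genes of this set. RefSeq windows of GRCm38.p6 (250 bases before to 50 after a start) matched 34 of the 40 genes, and there was no entry for Gclc, Gsr, Oplah, Ggt5, Gsta4 and Gstt2. On either strand, the core was found for 7 of the 34 (20.6%), against 16.9% of the 10394 genes with at least 10 reads and a window. These shares are not like for like. The 34 include Gpx2, Gpx7, Gpx8, Gstm3 and Gstp2, which had fewer than 10 reads. They also held 49 windows, against 13256 for the 10394 genes, and more windows per gene give more places for a match. The 7 genes were Gclm, Gsta3, Gstm5, Gstm7, Ggct, Mgst1 and Ggt1, and no match overlapped an AP-1 site (TGANTCA). Their log2 ratios ran from -2.37 to -0.29. Of the 34 genes with at least 10 reads, which are not the same as those with a window, 22 had intervals below 0. Genes without a window could hold no match, among them Gclc (0.86) and Gsr (0.71) as well as Oplah (-1.07), Gsta4 (-0.19) and Gstt2 (-2.02). Windows are shown for Gclm, whose direction was opposite to that of Gclc, and for Gstm7 and Mgst1, which were called lower, with the match in capitals, at chr3:122245307-122245606 (plus), chr3:107931565-107931864 (minus) and chr6:138140277-138140576 (plus). The matches lie 134, 129 and 56 bases before the RefSeq start of the window shown, in Gclm and Mgst1 on the opposite strand. Those of Gstm7 and Mgst1 fall inside the gene as annotated in GENCODE, and the other window of each of these genes holds no match.
Gclm: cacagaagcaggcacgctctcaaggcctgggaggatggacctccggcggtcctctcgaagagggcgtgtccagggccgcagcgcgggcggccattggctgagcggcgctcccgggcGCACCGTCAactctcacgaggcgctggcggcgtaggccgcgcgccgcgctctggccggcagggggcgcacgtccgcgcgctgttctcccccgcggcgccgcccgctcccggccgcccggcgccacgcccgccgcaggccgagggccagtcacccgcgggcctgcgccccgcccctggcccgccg
Gstm7: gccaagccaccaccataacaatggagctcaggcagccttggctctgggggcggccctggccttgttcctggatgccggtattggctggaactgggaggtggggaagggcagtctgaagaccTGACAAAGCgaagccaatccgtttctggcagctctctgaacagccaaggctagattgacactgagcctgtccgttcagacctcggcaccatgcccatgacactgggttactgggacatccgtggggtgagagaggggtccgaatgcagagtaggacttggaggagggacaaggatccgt
Mgst1: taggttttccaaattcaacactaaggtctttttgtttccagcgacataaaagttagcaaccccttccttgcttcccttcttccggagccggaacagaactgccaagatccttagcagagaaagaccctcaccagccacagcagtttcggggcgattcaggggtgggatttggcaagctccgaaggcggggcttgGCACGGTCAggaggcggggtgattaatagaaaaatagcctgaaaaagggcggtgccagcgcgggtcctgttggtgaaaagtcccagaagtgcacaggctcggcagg
A match is a description of these letters and no measure of binding.

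The rest of the pathway held calls in both directions. Of 76 listed genes outside the set, 73 were in the table and 63 had at least 10 reads. Of the 63, 7 were called higher (11.1%, against 2.71% of all genes) and 2 lower (3.17%, against 5.60%), with 26 intervals above 0 and 29 below, and the median log2 ratio was -0.10. Of the 7 called higher, Mat1a, Hpgds and Nat8f2 had fewer than 100 reads.

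The genes of cysteine supply were mixed. Slc7a11, the cystine importer, had 256 and 874 reads, and Slc1a4, a neutral amino acid carrier, had 427 and 1212, log2 ratios of 2.0 and 1.73. Slc3a2, the partner chain of Slc7a11, had 15903 and 27058 (1.00). Cbs, which takes homocysteine towards cysteine, had 661 and 149 (-1.91). Of the 10 genes with enough reads, 3 were called higher, the other being Mat1a with 5 and 26 reads, and 1 was called lower, beside 2.71% and 5.60% of all genes.

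Export and processing of conjugates also went both ways. Abcc2, the canalicular pump for glutathione conjugates, had 390 control and 2690 senescent reads (3.01). Abcc1 and Abcc4 were each at 0.72 and Abcc5 at -0.50. Intervals lay above 0 for 5 of the 7 transport genes with enough reads, beside 34.0% of all genes. Of 10 genes of conjugate processing, Kyat3, a kynurenine aminotransferase with cysteine conjugate lyase activity, was called lower, with 2395 and 216 reads (-3.24). Nat8f2, named after its values were seen, was called higher with 2 and 18 reads. Anpep was at 1.18, Kyat1 at -0.88 and Acy3 at -0.80.

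Among other glutathione genes, Chac1, a stress-induced enzyme that degrades glutathione, had 251 and 883 reads (2.04), in contrast to Chac2 at -0.12. Hpgds was also called higher, with 7 and 28 reads, and was named after its values were seen, as was Mat1a. Gstp3, a pi transferase outside the set, was at -1.25, Lancl1 at -0.41 and Ggact at -0.28. Of the 8 glutaredoxin and glyoxalase genes none was called, and the values furthest from 0 were those of Glrx (7354 and 2473 reads, -1.34), Esd (0.74), Hagh (-0.58) and Glrx2 (-0.41).

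The genes for making selenoproteins, to which Gpx1 and Gpx4 belong, had a median log2 ratio of -0.28 over 10 genes, and none was called. Scly, which releases selenium from selenocysteine, was at -1.17, Sephs2 at -0.62 and Pstk at -0.47. Selenop, counted in this list but itself a secreted selenoprotein, was at -0.66. The 10 NRF2 regulators and reference targets had a median of 0.28, and again none was called. Of their intervals, 7 lay above 0 and 2 below, beside 34.0% and 34.6% of all genes. Txnrd1, thioredoxin reductase, had 4905 and 10421 reads (1.32), Mafk was at 1.07, Hmox1 at 0.81 and Keap1, the inhibitor of NRF2, at -0.43. Nfe2l2, which encodes NRF2, was at -0.23, and Srxn1 had 2255 and 1917 reads, with an interval of -0.09 to 0.08. Both were named after their values were seen. The list mixes regulators with targets, so its counts give no direction of NRF2 activity, which was not tested.

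**Figure D5:**
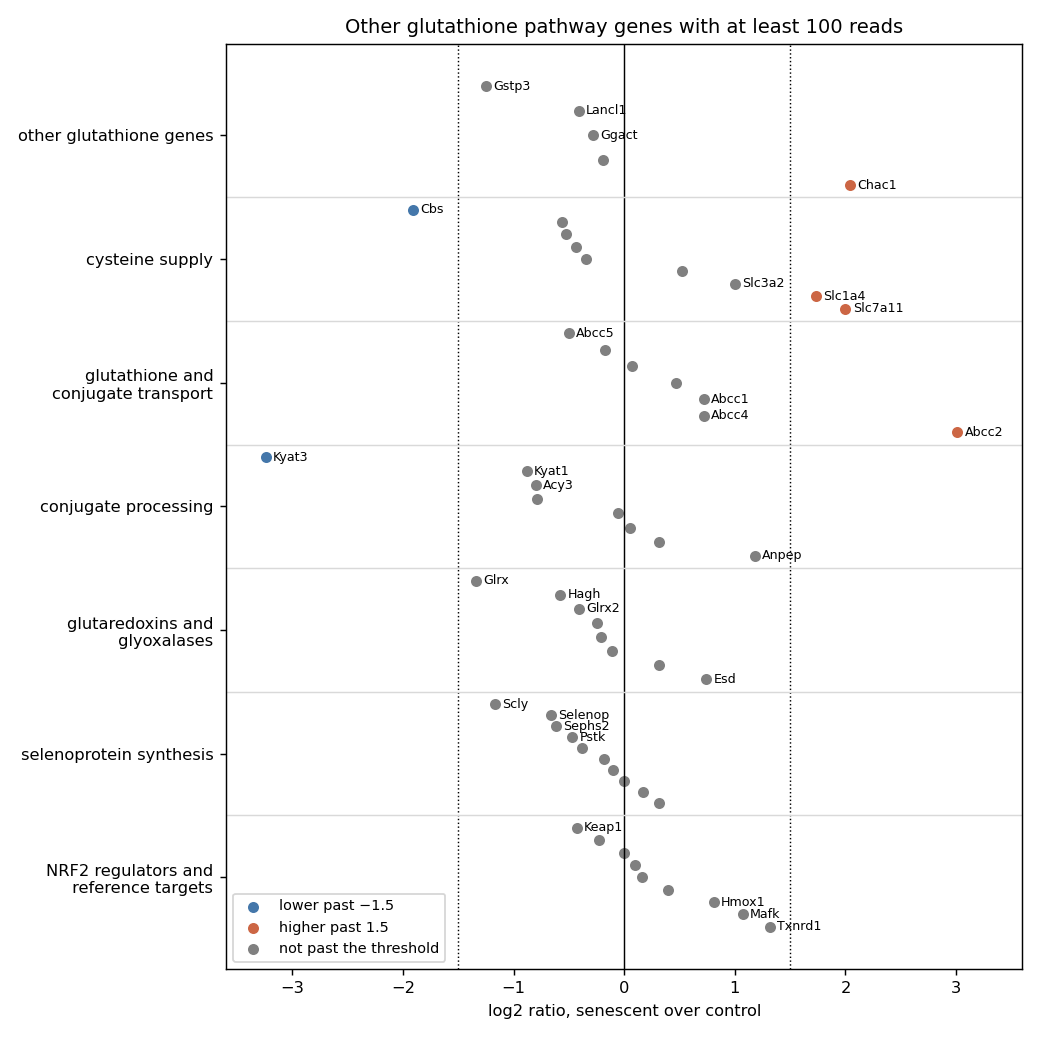
Log2 ratio of senescent over control reads for the genes of 7 other lists of the glutathione pathway with at least 100 reads, 1 row of points per list, with up to 4 genes of each list named and dotted lines at -1.5 and 1.5. Abcc2 (3.01), Chac1 (2.04), Slc7a11 (2.0) and Slc1a4 (1.73) lie past 1.5, and Kyat3 (-3.24) and Cbs (-1.91) past -1.5.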

How the data were processed

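RNAseq was carried out on poly(A) RNA of AML12 cells, with 1 library per condition. The authors deposited an un-normalised count of reads per Ensembl gene. The submitters' processing notes name CASAVA, STAR, DESeq2, edgeR and mm10. The counter, annotation and use of strand are not given in the sources used here. Columns were assigned by the initials of the sample titles. Symbols, positions and exon lengths came from GENCODE M21 (GRCm38), which paired 34490 of 35275 IDs. Counts were scaled by TMM in edgeR 4.0.16 (factors 1.04 and 0.964), with other scalings (DESeq2 1.42.0 among them), prior counts, read minimums, thresholds and assumed variation as alternatives. The threshold of 1.5 (2.83-fold) is that of the study. The scripts were tested on simulated data with counting error only and with changes well past the threshold. That test cannot speak to calls near the threshold or to variation between cultures. Every member was named with its counts, of each pathway list up to 4 genes with at least 100 reads and the ratios furthest from 0, and neighbours where called. Members and lists were chosen with earlier results of these data known. Coding identity was taken over aligned bases (Biopython 1.88). A listed pathway gene is not reported here.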

Additional observations from a re-analysis of the deposited data

How the results depend on the processing

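With 1 library per condition, nothing here measures variation between cultures. No paired analysis was possible because each condition had 1 library and the result comes from no test. The count of members called lower was 4 at a log2 threshold of 2 (11.8%, against 3.20% of all genes). It was 7 with an assumed coefficient of variation of 0.4 (20.6%, against 3.49%). The count called higher was 0 in both and with total-count scaling, where Gsta2 was at 1.496. Of all genes, 1.52%, 1.42% and 2.31% were called higher in these settings. Of the 14383 genes with at least 10 reads, 1435 were lower and 732 higher at a threshold of 1. At a threshold of 2 the counts were 460 and 219, and with a coefficient of variation of 0.4 they were 502 and 204. With a prior count of 5, 259 were higher. Of the 11291 genes with at least 100 reads, 395 were lower and 141 higher. The pi sum, Gstp1 and Mgst3 turned to -0.09 with total-count and -0.02 with upper-quartile scaling, and the sum of zeta, omega and kappa turned to -0.01 with total-count scaling. Gstm4 was at -1.49 with a prior count of 5. Each value was compared with the main setting once per alternative, so that a gene or sum can appear several times. Of these comparisons for counts, medians and class sums, 64 stayed near the main value, 14 moved further and 3 reversed in sign. Those that stayed near were not all equal to it. Beside 11 members lower (32.4%) in the main setting, there were 10 with a prior count of 5 (29.4%, against 4.19% of all genes). At a threshold of 1 there were 13 (38.2%, against 9.98%). For the log2 ratios of single genes, 164 comparisons kept their sign and side of the threshold, 4 reversed in sign and 2 fell short of the threshold. The reversals of single genes were all of Gstp1 and Mgst3. The cause of the reversals was not tested. Low counts limit Gpx3, Gsto2 and Gstm6, whose intervals span 0.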
